A study of Mus musculus with 12 samples.

Results

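The fibroblast and pericyte genes are 10 rows of a table of 47593 mouse genes, found by their symbols: Dcn, Lum, Pdgfra, Pdgfrb, Fap, Thy1, Postn, Dpt, Rgs5 and Pi16. They were chosen from earlier results of the same tumors, on their levels and on the way tumors 4 and 8 differed, so their levels and that difference are given here as a description with no test. The table holds TPM values, in which the transcripts of a tumor add up to 1000000 after each gene's reads were divided by its length, so that levels can be compared between genes. TPM keeps no number of reads, so depth and counting error are unknown. RNA was sequenced from 12 mammary tumors of 9 female MADM-mutant mice of mixed background, carrying the RG;GR pair of MADM alleles and given no treatment; the labels give no ages. MADM (mosaic analysis with double markers) uses Cre, driven here by the MMTV promoter in mammary epithelium, to turn a few cells of a heterozygous animal into GFP+ cells without Brca1 and p53, from which the tumors arise. The knocked-out p53 allele and the floxed Brca1 allele sit together on 1 MADM chromosome, so cells that Cre left unchanged are heterozygous for p53. The event that makes a GFP+ cell also makes a wild-type RFP+ sibling cell. Cre was meant to act in the epithelium, and whether fibroblasts or pericytes lost either gene was not examined here. A piece of each tumor was homogenized whole. Tumors 3 and 4 came from one mouse, tumors 10, 11 and 12 from another, and the other 7 mice gave 1 tumor each; no treatment groups exist and normal gland was not analysed here.

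Fibroblasts build the collagenous matrix of the gland and of tumors, and pericytes are the contractile cells that wrap small vessels. Decorin (Dcn) and lumican (Lum) are small leucine-rich proteoglycans that bind collagen fibrils, and dermatopontin (Dpt) is a further matrix protein of resting connective tissue. Peptidase inhibitor 16 (Pi16) marks fibroblasts of the outer vessel wall. Fibroblast activation protein (Fap) is a membrane protease and periostin (Postn) a secreted matrix protein, both known from activated fibroblasts of wounds and tumors. Pdgfra and Pdgfrb are the receptors for platelet-derived growth factors, the former typical of fibroblasts and the latter of pericytes and fibroblasts. Rgs5 dampens G protein signalling in pericytes. Thy1 is a surface protein of fibroblasts that T lymphocytes of mice carry as well.

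All 10 genes are protein coding, and the place of Pdgfrb is given with the receptors. In GENCODE vM21, on the build GRCm38, Dcn (ENSMUSG00000019929) lies on chromosome 10 from 97479609 to 97518143 and Lum (ENSMUSG00000036446) follows on the same strand from 97565128 to 97572703, 46984 bases further on. Keratocan (Kera) and epiphycan (Epyc), of the same proteoglycan family, come next in that cluster. Dpt (ENSMUSG00000026574, 164796644 to 164824266) and Rgs5 (ENSMUSG00000026678, 169655501 to 169695813) are both on chromosome 1. Pdgfra (ENSMUSG00000029231) is on chromosome 5 from 75152292 to 75198215, Postn (ENSMUSG00000027750) on chromosome 3 from 54361109 to 54391037 and Pi16 (ENSMUSG00000024011) on chromosome 17 from 29317680 to 29330593. Thy1 (ENSMUSG00000032011) is on chromosome 9 from 44043384 to 44048579, and Fap (ENSMUSG00000000392) is on the minus strand of chromosome 2 from 62500943 to 62574075.

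Of the 10 genes, 5 (Dpt, Pdgfra, Pi16, Postn and Rgs5) matched the RefSeq promoter sequences of build GRCm38.p6. Sequence upstream of 4 of them is shown here because these genes went different ways between tumors 4 and 8: Dpt and Rgs5 were lower in tumor 8, Pdgfra was higher and Postn was about level. Each is on the plus strand and ends at the start of the RefSeq transcript or, for Dpt, at that of the earlier GENCODE transcript. The positions are chr1:164796413-164796643 for Dpt, chr1:169655251-169655500 for Rgs5, chr5:75152001-75152250 for Pdgfra and chr3:54360857-54361106 for the second of the Postn starts. Capitals mark a match, on either strand, to TATAAA (the TATA box), TGANTCA (the AP-1 site), CATTCC (the core bound by TEAD factors) or GGGCGG (the core of an SP1 site).
Dpt: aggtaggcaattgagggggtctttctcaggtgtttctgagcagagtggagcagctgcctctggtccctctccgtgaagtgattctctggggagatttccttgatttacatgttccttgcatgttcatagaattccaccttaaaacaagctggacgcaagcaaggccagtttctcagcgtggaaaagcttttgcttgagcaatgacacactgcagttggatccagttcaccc
Rgs5: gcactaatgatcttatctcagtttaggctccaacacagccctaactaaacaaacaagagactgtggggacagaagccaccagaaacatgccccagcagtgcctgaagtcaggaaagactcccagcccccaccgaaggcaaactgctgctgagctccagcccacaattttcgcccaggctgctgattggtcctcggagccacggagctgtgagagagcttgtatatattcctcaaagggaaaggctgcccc
Pdgfra: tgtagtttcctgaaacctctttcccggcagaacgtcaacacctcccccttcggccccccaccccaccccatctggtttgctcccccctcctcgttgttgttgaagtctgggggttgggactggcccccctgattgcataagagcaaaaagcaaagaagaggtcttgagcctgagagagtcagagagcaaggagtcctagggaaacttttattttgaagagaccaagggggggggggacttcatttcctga
Postn: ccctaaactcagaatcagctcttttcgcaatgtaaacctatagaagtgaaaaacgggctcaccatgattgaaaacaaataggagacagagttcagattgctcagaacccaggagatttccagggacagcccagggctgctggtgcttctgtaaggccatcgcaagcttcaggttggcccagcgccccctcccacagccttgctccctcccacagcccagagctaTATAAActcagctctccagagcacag
Among these sequences 1 match was found, a TATAAA that begins 26 bases before the Postn start. Over all 32851 promoters, taken as the 250 bases before each start, 12.4% held TATAAA, 6.75% TGANTCA, 12.6% CATTCC and 32.7% GGGCGG. The matches describe letters in these windows and no binding was measured.

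Postn had the highest level of the 10 genes, with and without tumor 8. Means over mice, with tumors of one mouse averaged, were 355 ± 233 TPM for Postn (SD, n = 9 mice), 236 ± 564 TPM for Dcn, 63.1 ± 42.4 TPM for Thy1, 29.4 ± 39.4 TPM for Lum and 25.5 ± 31.4 TPM for Pdgfrb. They were 25.3 ± 11.7 TPM for Rgs5, 18.4 ± 35.1 TPM for Pdgfra, 17.0 ± 18.8 TPM for Dpt, 6.82 ± 7.39 TPM for Pi16 and 4.90 ± 2.76 TPM for Fap. No pair of neighbours in this order differed by more than the larger of their SDs. The place of Dcn rested on tumor 8: its median over mice was 41.0 TPM, below the 54.3 TPM of Thy1, and without tumor 8 its mean was 49.5 ± 59.8 TPM. Other places rested on it too: without tumor 8 the means were 26.9 TPM for Rgs5, 19.9 TPM for Lum, 17.8 TPM for Dpt, 15.3 TPM for Pdgfrb, 7.28 TPM for Pi16 and 6.78 TPM for Pdgfra, which is the order from the fourth to the ninth. In whole tumors, more cells of a type and more RNA per cell cannot be told apart.

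Tumors 2 and 8 stood apart from the other 10 in the markers of the tumor cells themselves, which bears on each value from them. The summed level of 6 epithelial genes (Epcam, Cdh1, Krt8, Krt18, Cldn3 and Cldn7) was 1.38 TPM in tumor 2, with Epcam listed at 0, and 154 TPM in tumor 8, against 2570 to 7610 TPM in the other tumors. Tumor 2 had 4662 TPM over 5 B lymphocyte genes, where the next tumor had 333 TPM. The mammary tumor label of tumor 2 is therefore not borne out by its epithelial markers, and the main values that rest on it are given without it as well.

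**Figure D1:**
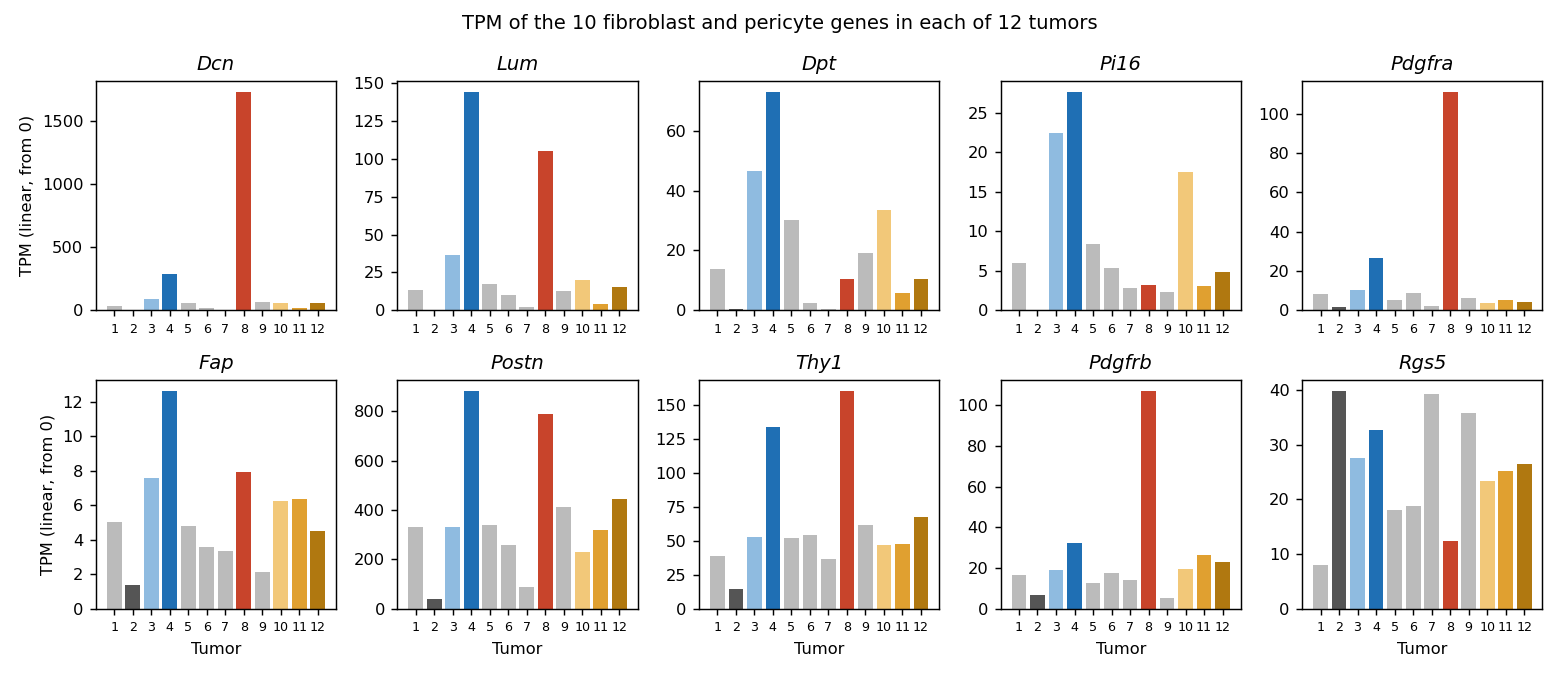
TPM of each of the 10 genes (vertical axes, linear, from 0, a scale of its own in each panel) in tumors 1 to 12 (horizontal axes), 1 bar per tumor with no error since each tumor was sequenced once; blues mark tumors 3 and 4 of one mouse, ochres tumors 10, 11 and 12 of another, red tumor 8 and dark grey tumor 2. Dcn reached 1732 TPM in tumor 8 against 285 TPM in tumor 4, whereas Dpt and Pi16 were highest in tumor 4 and Rgs5 was highest in tumor 2.

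Tumors 4 and 8 held the highest value of 9 of the 10 genes between them. Tumor 4 was the highest of the 12 in 5 genes (Lum, Fap, Postn, Dpt and Pi16) and tumor 8 in 4 (Dcn, Pdgfra, Pdgfrb and Thy1). At the other end, tumor 2 was the lowest in 8 genes, the exceptions being Pdgfrb and Rgs5, and tumor 7 came second lowest in 6 (Dcn, Lum, Pdgfra, Thy1, Postn and Dpt). The median over the 10 genes ran from 1.87 TPM in tumor 2 and 3.08 TPM in tumor 7 to 52.8 TPM in tumor 4 and 106 TPM in tumor 8, with the remaining 8 tumors between 9.65 and 32.0 TPM. The order of tumors 4 and 8 turned with the summary: the mean of log2(TPM + 1) over the 10 genes was 6.20 in tumor 4 and 6.05 in tumor 8. Tumor 7 kept its epithelial genes, with a sum of 2599 TPM, and its low fibroblast genes thus accompanied a sum near the low end of the other epithelial tumors.

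Between tumors 8 and 4 the genes parted in 3 ways. Dcn was at 1732 TPM in tumor 8 against 285 TPM in tumor 4, which is 2.60 apart on the log2(TPM + 1) scale. Pdgfra was at 111 TPM against 26.6 TPM, a difference of 2.02, and Pdgfrb at 107 TPM against 32.5 TPM, a difference of 1.69. The proteoglycan and both PDGF receptors were thus higher in tumor 8. Dpt went the other way, with 10.3 TPM against 73.0 TPM, a difference of -2.71. Pi16 was at 3.14 TPM against 27.6 TPM, a difference of -2.79, and Rgs5 at 12.4 TPM against 32.7 TPM, a difference of -1.32. Dpt, Pi16 and Rgs5 were thus lower in tumor 8, where Dpt ranked seventh and Pi16 eighth of the 12 tumors. Other genes of the same cell types were divided between the tumors, as given below. The other 4 genes were close: Lum at 106 against 144 TPM, Fap at 7.90 against 12.7 TPM, Postn at 788 against 884 TPM and Thy1 at 161 against 134 TPM.

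In count, 2 of the 10 genes (Dcn and Pdgfra) were higher in tumor 8 by 4-fold or more and 2 (Dpt and Pi16) were lower, where 4-fold is a difference of 2 on the log2(TPM + 1) scale. Over the 17444 genes at 1 TPM or more in either tumor, 2.1% were higher and 4.2% lower by that much. With 2-fold as the limit, 3 of the 10 were higher and 3 lower, against 10.8% and 13.4% of all genes. Since this difference chose the genes, nothing is read from these shares, and with 1 tumor on each side it has no replicate check.

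**Figure D2:**
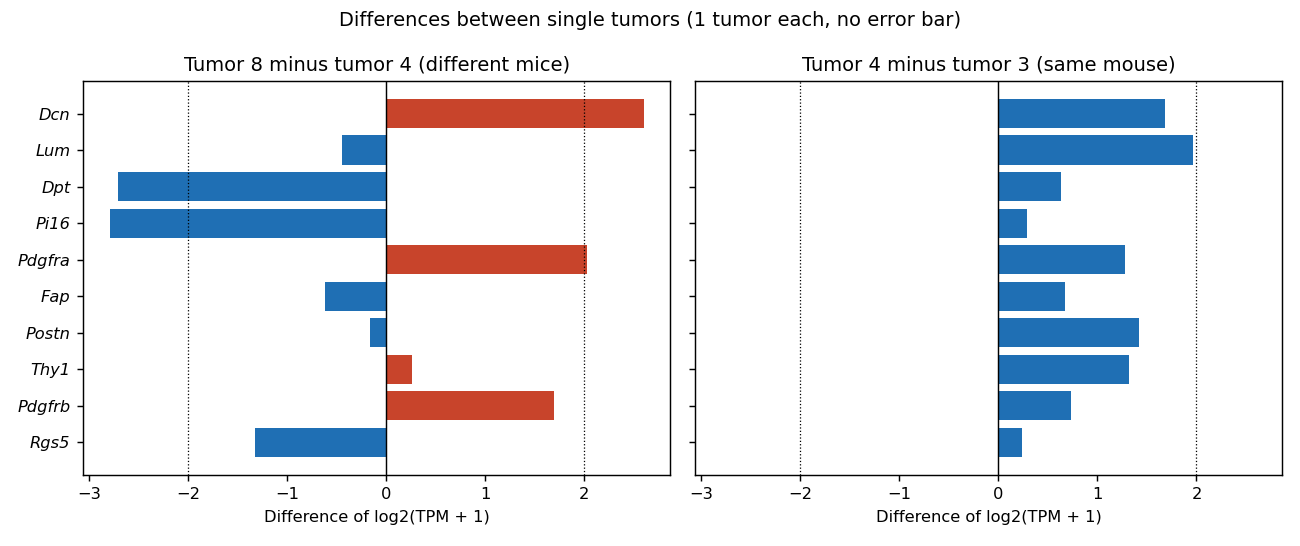
Difference of log2(TPM + 1) for each of the 10 genes (horizontal axis), tumor 8 minus tumor 4 on the left and tumor 4 minus tumor 3 on the right; dotted lines mark a difference of 2 (4-fold) either way, red on the left is higher in tumor 8 and blue higher in tumor 4, and bars have no error because each side is 1 tumor. On the left Dcn at 2.60 and Pi16 at -2.79 lie at opposite ends, and on the right all 10 bars are above 0, from 0.23 for Rgs5 to 1.96 for Lum.

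Dcn and Lum are neighbours on chromosome 10 and encode related proteoglycans. In 10 of the 11 tumors with Lum above 0, Dcn divided by Lum was between 1.18 in tumor 7 and 5.17 in tumor 9. It was 1.97 in tumor 4 but 16.4 in tumor 8. Such a range was not particular to these neighbours. Postn divided by Thy1, which lie on different chromosomes, was between 2.43 and 8.41 over all 12 tumors, with 4.90 in tumor 8. Lum itself was at 106 TPM in tumor 8, the second highest of the 12. In tumor 2, Dcn was at 2.33 TPM and Lum was listed at 0. The maximum over the 12 tumors was 0.470 TPM for Kera and 0.213 TPM for Epyc. Genes this near 0 in every tumor cannot show whether the high Dcn of tumor 8 extended to them. Other proteoglycans of the family also differed among themselves: osteomodulin (Omd) was at 6.96 TPM in tumor 8, with a maximum of 0.549 TPM elsewhere, asporin (Aspn) was at 40.6 against 22.8 TPM in tumors 8 and 4, and osteoglycin (Ogn) was at 1.06 against 8.70 TPM. Of the 11 proteoglycan genes 3 (Dcn, Omd and Aspn) were higher in tumor 8, with a median difference of -0.56, and without Dcn and Lum 2 of 9 were, with a median of -0.71. The lower ones included biglycan (Bgn), at 408 against 669 TPM, and Prelp, at 4.22 against 22.4 TPM. The ratio of Dcn to Dpt showed the widest departure, at 167 in tumor 8 and 3.90 in tumor 4, with 1.72 to 8.30 in the other tumors.

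**Figure D3:**
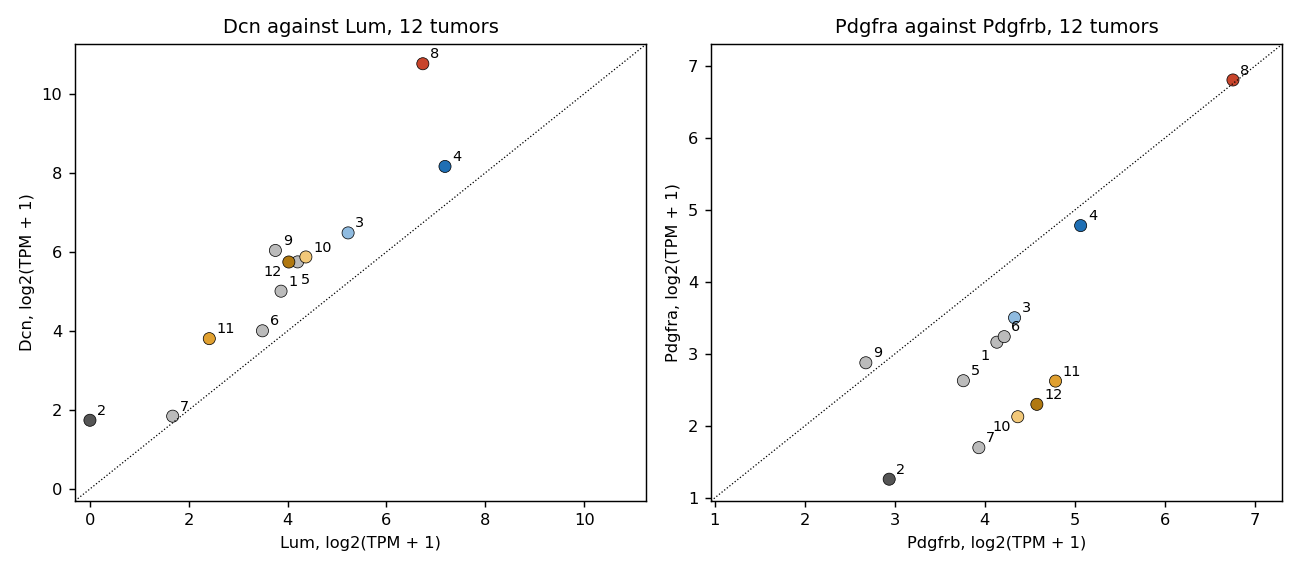
Dcn against Lum (left) and Pdgfra against Pdgfrb (right), each as log2(TPM + 1), 1 point per tumor with its number beside it and a dotted line where both genes are equal; blues are tumors 3 and 4, ochres tumors 10 to 12, red tumor 8 and dark grey tumor 2. Tumor 8 lies far above the line on the left, with a Dcn to Lum ratio of 16.4, and near the line on the right, with a Pdgfra to Pdgfrb ratio of 1.04.

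The PDGF receptors also changed their balance. Pdgfrb (ENSMUSG00000024620) lies on the plus strand of chromosome 18 from 61045150 to 61085061. Pdgfra ran from 1.40 TPM in tumor 2, through a median of 5.77 TPM, to 111 TPM in tumor 8, and Pdgfrb from 5.41 TPM in tumor 9, through a median of 18.4 TPM, to 107 TPM in tumor 8. Pdgfra divided by Pdgfrb had a median of 0.447 over the 12 tumors and was 0.157 in tumor 7, 0.817 in tumor 4, 1.04 in tumor 8 and 1.18 in tumor 9. Pdgfrb thus exceeded Pdgfra in 10 of 12 tumors, the exceptions being tumors 8 and 9. Their ligands were not highest in the same tumors: Pdgfb, the main ligand of Pdgfrb, was at 19.1 TPM in tumor 8 against 76.0 TPM in tumor 4, and Pdgfa was at 87.6 against 74.4 TPM, while both were highest in tumor 1, at 260 and 178 TPM.

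Rgs5 differed from the rest in its order of tumors. It ran from 7.98 TPM in tumor 1, through a median of 25.9 TPM, to 39.9 TPM in tumor 2, and was second lowest in tumor 8. It spanned 5.00-fold over the 12 tumors, where Fap spanned 9.08-fold, Thy1 11.1-fold and Dcn 742-fold. Without tumor 2 the ranges were 4.92-fold for Rgs5, 5.93-fold for Fap, 4.38-fold for Thy1 and 671-fold for Dcn, so the narrowest range passed from Rgs5 to Thy1. Over the 9 mice all 9 pairs of Rgs5 with another of the genes had a negative Pearson's r of log2(TPM + 1), between -0.55 and -0.30, and all 36 pairs of the other 9 genes had a positive r, between 0.23 and 0.96. These signs were the same without tumor 8 and without tumor 2, although without tumor 2 the pairs with Rgs5 reached up to -0.03 and the other pairs down to 0.0030. Without both tumors 1 of the 9 pairs with Rgs5 was positive, that with Thy1 at 0.34, and the other 36 pairs ranged from 0.021 to 0.97, with Pdgfrb near 0 to Dcn (0.021), Postn (0.022) and Dpt (0.037). The points share tumors, the genes were chosen from these values and TPM is relative within a tumor, so the pairs are a description. Pdgfrb was uneven in its pairs with the fibroblast genes. Its r was 0.85 to Pdgfra (0.50 without tumor 8), 0.79 to Fap (0.88 without it), 0.75 to Thy1 (0.49 without it), 0.73 to Dcn (0.32 without it), 0.72 to Lum (0.56 without it), 0.59 to Postn (0.42 without it), 0.36 to Pi16 (0.79 without it) and 0.23 to Dpt (0.32 without it), so the order of these pairs depended on tumor 8. The ratio of Pdgfrb to Rgs5 was 8.63 in tumor 8 and 0.151 to 2.08 elsewhere. The r of Pdgfrb with Rgs5 was -0.53 and was -0.24 without tumors 2 and 8. Both genes were chosen with their difference between tumors 8 and 4 known, so nothing is concluded from it.

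The pericyte genes were divided between tumors 8 and 4. Of 11 pericyte and mural genes, Rgs5 and Pdgfrb among them, 4 (Pdgfrb, Kcnj8, Abcc9 and Mcam) were higher in tumor 8, with a median difference of -1.05, where 8031 of all 17444 genes were higher with a median of -0.07. Their sum was 232 TPM in tumor 8, 261 TPM in tumor 4 and 116 to 262 TPM in the other tumors, and without Pdgfrb it was 125, 229 and 109 to 243 TPM. Of these 11, none was higher in tumor 8 than in tumor 4 by 4-fold and 2 were lower: Notch3, a receptor of mural cells, at 2.56 against 34.9 TPM, and the muscle filament desmin (Des) at 1.40 against 19.4 TPM. Des was highest in tumors 2, 3 and 4, at 32.6, 23.4 and 19.4 TPM, where the skeletal muscle gene Ckm was at 23.7, 25.3 and 16.7 TPM and elsewhere at most 0.142 TPM, and the part of muscle in it was not tested. The potassium channel genes Kcnj8 and Abcc9, which mark pericytes, were at 7.35 against 5.81 TPM and 5.42 against 4.65 TPM. Endothelial genes summed to 195 TPM in tumor 8, the highest of the 12, and 105 TPM in tumor 4, so the low Rgs5 of tumor 8 did not come with low endothelial genes.

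The wider fibroblast lists differed in how they stood between tumors 8 and 4. Over all genes tested the median difference was -0.07. The 12 fibroblast matrix genes had a median difference of -0.03, with 6 higher and 6 lower, of which 0 and 1 (Mfap5) by 4-fold. Col1a1 was at 269 against 599 TPM and Col3a1 at 500 against 1091 TPM, while fibronectin (Fn1) was at 1211 against 505 TPM and Col5a1 at 167 against 76.6 TPM. Of 12 universal and outer vessel wall fibroblast genes, a list that holds Dpt and Pi16, 5 were higher, 1 of them by 4-fold. By 4-fold 4 were lower, and the median was -1.03. The sum went the other way, at 1504 TPM in tumor 8 and 948 TPM in tumor 4. Without Dpt and Pi16, 5 of the remaining 10 were higher, 1 of them by 4-fold, and 2 were lower by 4-fold. The median of these 10 was -0.12. The tetranectin gene Clec3b was listed at 0 in tumor 8 and was at 27.0 TPM in tumor 4, whereas Cd34, which also marks endothelium, was at 454 against 55.3 TPM. Of 11 activated fibroblast genes, with Fap and Postn among them, 5 were higher in tumor 8, 2 of them by 4-fold, and 2 were lower by 4-fold. The pair higher by 4-fold were the matrix protein gene Tnc, at 949 against 186 TPM, and Inhba, and the pair lower by 4-fold were the contractile genes Acta2, at 41.1 against 194 TPM, and Tagln, at 38.5 against 195 TPM. Cthrc1, a secreted protein of activated fibroblasts, was at 195 against 51.0 TPM. Lrrc15, known from tumor myofibroblasts, was alike in both, at 46.5 and 48.0 TPM, with a maximum of 11.6 TPM in the other 10 tumors. Of 9 genes of the fibroblast cytokine list 5 were higher, 2 of them by 4-fold, and none was lower by 4-fold. The pair higher by 4-fold were the monocyte attractant Ccl2, at 584 against 95.9 TPM, and Has2, at 70.1 against 15.4 TPM. Has2 encodes a hyaluronan synthase and not a cytokine.

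Marker genes of other tissue moved with these differences. From tumor 4 to tumor 8 all 6 epithelial genes were lower by 4-fold or more, with a median difference of -6.70 and sums of 4763 and 154 TPM. Of 9 mesenchymal genes 8 were higher and 2 of them by 4-fold, which were the transcription factor genes Prrx1, at 172 against 13.8 TPM, and Twist2, at 64.6 against 4.83 TPM. Vimentin (Vim) was at 3049 against 917 TPM, short of 4-fold. All 6 adipocyte genes were lower in tumor 8, 5 of them by 4-fold, with sums of 40.7 and 376 TPM, where the other 10 tumors ran from 14.6 to 234 TPM; Cidec and Lep were listed at 0 in tumor 8. All 6 skeletal muscle genes were lower too, with sums of 5.24 and 277 TPM, and tumor 3, from the mouse of tumor 4, had 401 TPM; Ckm, Myh4 and Tnnc2 were listed at 0 in tumor 8. Tumor 4 carried the highest adipocyte sum of the 12 together with the highest Dpt and Pi16. All 6 T lymphocyte genes were higher in tumor 8, with sums of 83.2 and 20.6 TPM, and all 6 macrophage genes as well, with sums of 3206 and 2029 TPM. The part of these cells or of tumor cells in the levels of the 10 genes was not tested.

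**Figure D4:**
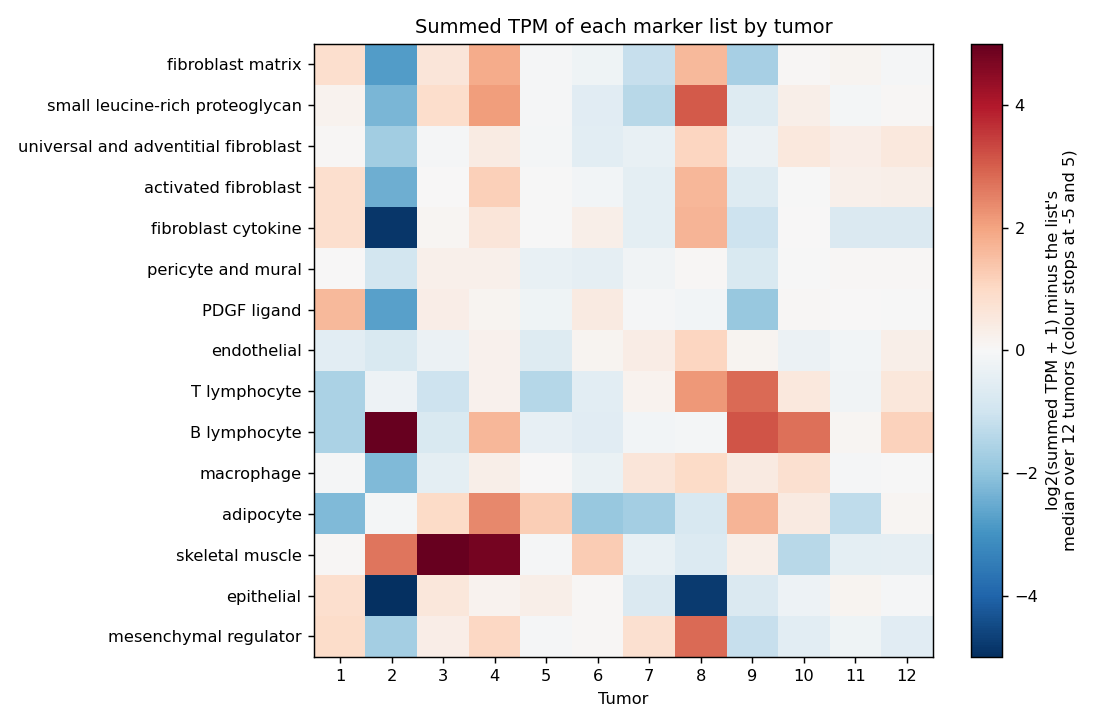
Summed TPM of 15 marker lists (rows) in tumors 1 to 12 (columns), as log2(sum + 1) minus the median of the list over the 12 tumors; red is above the median, blue below, and the colour stops at 5 either way. Tumor 8 combines high mesenchymal and T lymphocyte sums with an epithelial sum of 154 TPM, and its proteoglycan sum of 2305 TPM is 573 TPM without Dcn, against 888 TPM in tumor 4 without it, and tumor 4 combines high matrix and adipocyte sums with an epithelial sum of 4763 TPM.

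Tumors 3 and 4, from one mouse, show how much the genes can differ within an animal. All 10 genes were higher in tumor 4 than in tumor 3, with a median difference of 1.01 against -0.05 over the 17009 genes tested. Lum was at 144 against 36.4 TPM, Dcn at 285 against 88.2 TPM and Postn at 884 against 330 TPM, and Thy1 and Pdgfra likewise passed 2-fold, which made 5 of the 10. Of all genes, 3.92% were higher and 1.09% lower by 2-fold or more. None of the 10 passed 4-fold in either direction, against 0.535% and 0.112% of all genes. Dpt, at 73.0 against 46.7 TPM, Pi16, at 27.6 against 22.4 TPM, and Rgs5, at 32.7 against 27.6 TPM, were closer than the matrix genes. The 12 fibroblast matrix genes were also all higher in tumor 4, with a median difference of 1.32 and sums of 5850 and 2506 TPM, and so were all 6 adipocyte genes, with sums of 376 and 139 TPM. The same held for all 7 endothelial, all 6 macrophage, all 6 T lymphocyte, all 5 B lymphocyte and all 9 mesenchymal genes, so the direction was shared by several other cell types. It was not shared by the pericyte and mural genes, of which 6 of 11 were higher with a median difference of 0.06 and sums of 261 and 262 TPM, or by the PDGF ligands, of which 1 of 4 was higher. All 6 epithelial genes were lower, with sums of 4763 and 6255 TPM, and all 6 skeletal muscle genes as well. The genes were chosen with the high values of tumor 4 in view, which favours this direction.

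In the mouse with 3 tumors another set of genes spread. Dpt was at 33.5, 5.74 and 10.3 TPM in tumors 10, 11 and 12, a 5.83-fold range. Pi16 was at 17.5, 3.09 and 4.84 TPM, a 5.67-fold range. Lum and Dcn followed, at 4.54-fold and 4.43-fold, and tumor 10 was the highest and tumor 11 the lowest of the 3 in each of these 4 genes. Postn went against them, with its lowest value of 229 TPM in tumor 10 and its highest of 443 TPM in tumor 12. Pdgfra, Pdgfrb, Fap, Thy1 and Rgs5 stayed within 1.53-fold. Thus Dpt and Pi16 were close in one pair of sister tumors and far apart in the other trio, whereas Rgs5 was within 1.18-fold in both animals. The adipocyte sum was also highest in tumor 10 of the 3, at 97.8 TPM against 28.9 and 75.5 TPM.

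Over mice, most of the 10 genes varied more than a typical gene. Their SD of log2(TPM + 1) over the 9 mice had a median of 1.30, against 0.57 for the 16802 genes with a mean of 1 TPM or more. The genes were chosen on their levels in these tumors, which favours a wide spread, so this is a description. It was 2.76 for Dcn, above that of 99.5% of those genes, 2.05 for Lum, 1.92 for Dpt and 1.62 for Pdgfra, and lowest for Rgs5 at 0.76 and Fap at 0.69. The place of Rgs5 depended on single tumors: without tumor 2 Thy1, at 0.67, came below Rgs5, at 0.74, and without tumor 8 Pdgfrb, at 0.72, and Thy1, at 0.73, did so. Without tumor 8 the SD of Dcn was 1.98, that of Pdgfra 0.91 in place of 1.62 and that of Pdgfrb 0.72 in place of 1.18, and without tumor 2 that of Lum was 1.60 and that of Pi16 0.95. The spread of Dpt and Pi16 did not rest on tumor 8, without which it was 2.05 and 1.36 against 1.92 and 1.28 with it.

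The genes most alike to each member over the 9 mice were sought among 16792 other genes. With Dcn went B3galnt1 (r = 0.97) and Abi3bp (r = 0.96), and with Lum went Mmp2 (r = 0.98) and Plbd2 (r = 0.98). Mmp2 encodes a matrix metalloproteinase and was also among the genes nearest to Thy1 (r = 0.98). The biglycan gene Bgn was nearest to Fap (r = 0.97), the collagen gene Col5a3 and the endothelial adhesion gene Esam to Pdgfrb (r = 0.98 and 0.97), and Tspan11 and Cped1 to Pdgfra (r = 0.98 and 0.97). Dpt was nearest to Gm14057 (r = 0.98) and to Sfrp4 (r = 0.96), a secreted Wnt inhibitor, and Pi16 to Espn (r = 0.99) and Igfbp6 (r = 0.97), an IGF binding protein. Ap2a2 and Wsb2 were nearest to Postn (r = 0.97 and 0.96), Gm5424 and Mmp2 to Thy1 (r = 0.98 for both) and Snora69 and Zfp512 to Rgs5 (r = 0.96 and 0.93). The highest of so many values over 9 mice is large in any case, so these are given as a description.

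For 6 pairs, a member was set against a gene outside the set, as Pearson's r and Spearman's rho of log2(TPM + 1) over 9 mice with two-sided exact permutation tests and Benjamini-Hochberg adjustment over the 6. The pairs were chosen with earlier results of these tumors known, so their p-values are not independent of those results. Postn with the fibrillar collagen gene Col1a1 had r = 0.87 (exact permutation p = 0.0023, adjusted p = 0.014) and rho = 0.77 (p = 0.021, adjusted p = 0.076). Leaving out the mice of tumors 2 and 7, the farthest from the median in Postn, gave r = 0.53 over 7 mice (exact permutation p = 0.22), so without both the relation did not pass, over a narrower range of Postn. Leaving out one alone gave r = 0.71 without tumor 2 (exact permutation p = 0.038) and r = 0.86 without tumor 7 (exact permutation p = 0.013). Dcn with Col1a1 had r = 0.76 (exact permutation p = 0.018) and rho = 0.75 (p = 0.025) but did not pass the correction (adjusted p = 0.055 and 0.076), and without the mice of tumors 2 and 8 it was r = 0.67 (exact permutation p = 0.092). The pairs with a vessel gene did not pass: Rgs5 with the endothelial gene Pecam1 had r = 0.21 and rho = 0.42 (exact permutation p = 0.58 and 0.27, adjusted p = 0.58 and 0.32), and Pdgfrb with Pecam1 had r = 0.49 and rho = 0.20 (exact permutation p = 0.18 and 0.61, adjusted p = 0.22 and 0.61). Both changed with the mice left out. Without the mice of tumors 1 and 8 Rgs5 gave r = 0.70 (exact permutation p = 0.079), and without those of tumors 8 and 9 Pdgfrb gave r = -0.37 (exact permutation p = 0.43), both over 7 mice.

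Thy1 with the T lymphocyte gene Cd3e had r = 0.50 (exact permutation p = 0.16, adjusted p = 0.22) and rho = 0.63 (p = 0.078, adjusted p = 0.15), and r = 0.29 without the mice of tumors 2 and 8 (exact permutation p = 0.51). The highest Cd3e, 14.97 TPM, was in tumor 9, where Thy1 was at 61.9 TPM, and the highest Thy1, 161 TPM, was in tumor 8, where Cd3e was at 3.40 TPM. Pi16 with the adipocyte hormone gene Adipoq had r = 0.60 (exact permutation p = 0.084, adjusted p = 0.17) and rho = 0.59 (p = 0.099, adjusted p = 0.15), and r = 0.17 without the mice of tumor 2 and of tumors 3 and 4 (exact permutation p = 0.69). No sequencing batch is given in the labels, so no value within batches could be computed.

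**Figure D5:**
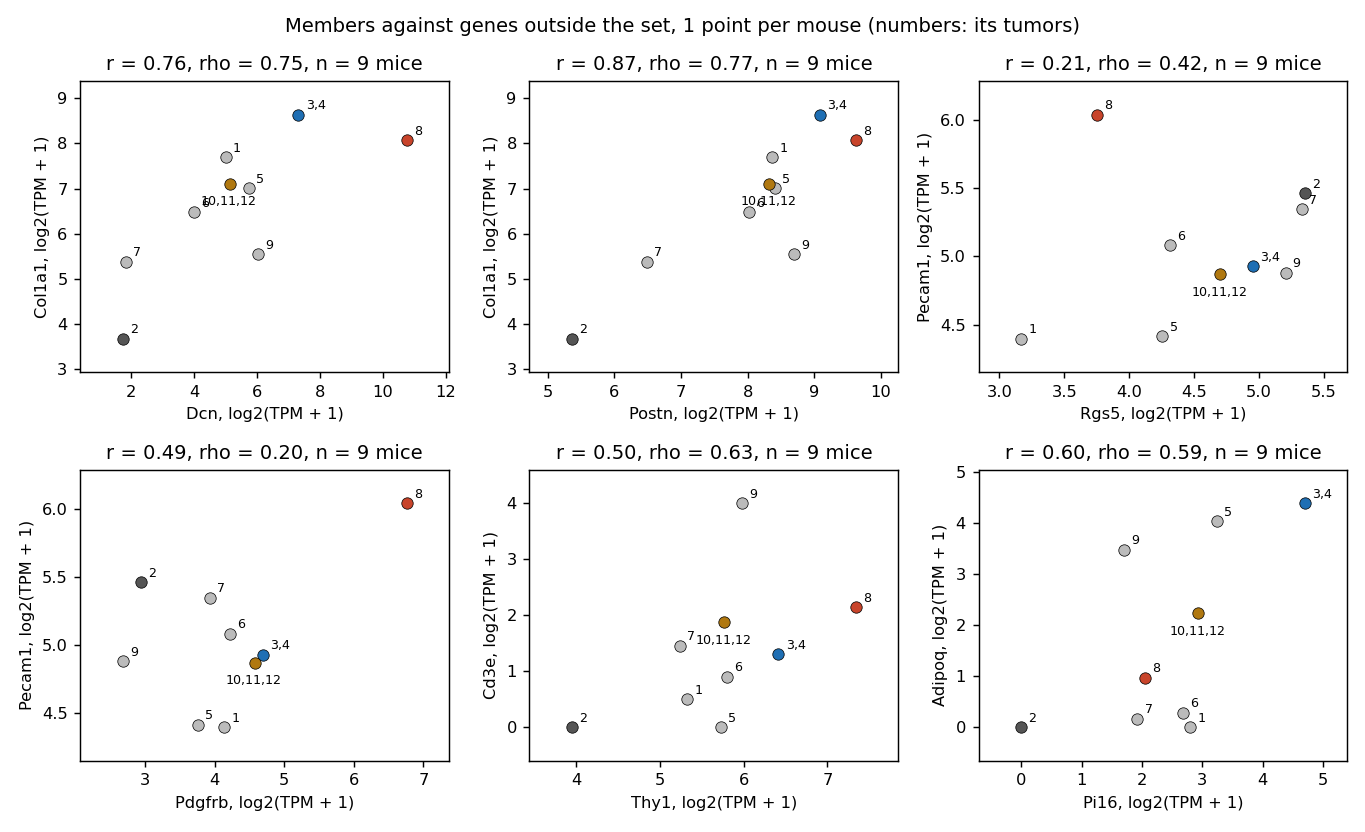
Each of the 6 pairs as log2(TPM + 1), 1 point per mouse with the numbers of its tumors (tumors of one mouse averaged), a member on the horizontal axis and the gene outside the set on the vertical axis; red is tumor 8, dark grey tumor 2, blue the mouse of tumors 3 and 4 and ochre that of tumors 10 to 12. Col1a1 is higher where Postn is higher (r = 0.87), and tumor 8, with 64.7 TPM of Pecam1, is the highest point in both plots of that gene.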

How the data were processed

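RNA from 12 whole tumors of 9 mice was made into stranded mRNA libraries. Per the paper's methods, the authors trimmed paired-end reads with fastq-mcf, used HISAT2 for alignment to mouse transcripts (GRCm38) and deposited TPM values from StringTie 2.1.6; tumors were not pooled, and how transcripts were summed per gene is not given in the sources used here. TPM is relative within a tumor and keeps no read number, so depth and counting error are unknown; between 21415 and 23443 genes per tumor were above 0. Columns were matched to tumors by animal and suffix.

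From these, log2(TPM + 1) was computed and tumors of one mouse were averaged, giving 9 values. Each exact permutation p-value is the share of all re-pairings of the mouse values whose r or rho was at least as far from 0. Differences between single tumors were compared with all genes at 1 TPM or more in either. The members, the 15 marker lists (119 genes, all matched) and the tests were chosen with earlier results of these data known. Named genes were the members, up to 4 genes of each list in its order, and the 2 most alike genes per member where the mean reached 1 TPM. Further genes of the lists, and the proteoglycans set beside Dcn, were chosen after their values were seen. The calculations were tested on simulated data. Alternatives were a pseudocount of 0.1, TPM rescaled without the 37 mitochondrial genes, each tumor as a unit, a mean in place of a median, another fold limit, a filter on low genes and leaving out each mouse. Calculations used scipy 1.17.1, pandas 2.3.3 and numpy 2.4.6 under Python 3.11.15, and plots used matplotlib 3.10.9. Places are from GENCODE vM21 and promoters from RefSeq, both on GRCm38. Exome and staining data were not analysed here.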

Additional observations from a re-analysis of the deposited data

Results flagged for a closer look

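Each of the 10 genes was examined on the log2(TPM + 1) scale for a mouse distant from all others, using the gap to its nearest neighbour over the whole range (Dixon's ratio). Pdgfrb passed the limit, with 6.76 in the mouse of tumor 8 and 4.70 in the next mouse, that of tumors 3 and 4, a ratio of 0.505. The limit is one that chance passes about 1 time in 20 for a gene chosen without regard to its values. Pdgfra in the same mouse came close without passing, at 6.81 with 4.15 next and a ratio of 0.480. These genes were chosen with the values of tumor 8 known, which favoured this outcome, so that rate does not apply to them and the ratios are a description. No cause was tested.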

How the results depend on the processing

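Without tumor 8 the mean of Dcn went from 236 to 49.5 TPM, that of Pdgfra from 18.4 to 6.78 TPM and that of Pdgfrb from 25.5 to 15.3 TPM. These changes are under 1 SD over mice, but tumor 8 itself widens that SD, so it says little about their stability. With a mean in place of the median over the 10 genes, tumor 4 and not tumor 8 was highest. The counts of genes past 4-fold between tumors 8 and 4 stayed within 1.5 times. The count of 5 genes higher in tumor 4 than in tumor 3 by 2-fold was 0 at 4-fold, the limit also used between tumors 8 and 4. That count thus rests on the lower limit. For the 6 correlations, sides of 0.05 refer to unadjusted p-values. With each mouse left out in turn, r ranged from 0.68 to 0.82 for Dcn with Col1a1, lost without tumor 2 (0.68, exact permutation p = 0.056). It ranged from 0.71 to 0.97 for Postn with Col1a1, the largest p being 0.038. Rgs5 with Pecam1 ranged from -0.18 without tumor 1 to 0.79 without tumor 8 (exact permutation p = 0.016), and Pdgfrb with Pecam1 from -0.25 without tumor 8 to 0.70 without tumor 2. Thy1 with Cd3e ranged from 0.33 to 0.69 (without tumor 9, exact permutation p = 0.048), and Pi16 with Adipoq from 0.38 to 0.74 (without tumor 9, exact permutation p = 0.018). With each tumor as a unit Pi16 with Adipoq passed as well, at r = 0.71 (permutation p = 0.0086); tumors of one mouse are then counted apart. The cause was not tested for the other changes. No pair fell to the filter on low genes. Without read numbers, how far a TPM under 1 differs from 0 is unknown.

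No paired analysis was possible because the RNA samples form a single group.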
